A study of Mus musculus with 84 samples.

Results

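Nuclear RNA of frontal cortex neurons was compared between mice sampled 24 h after an injection of DOI and mice injected with vehicle. The comparison took the 16 RNA libraries whose labels name these groups, of 84 samples in the series, and the 2 libraries of each mouse were summed, which left 4 DOI mice and 4 vehicle mice. All 8 were of the 129S6/SvEvTac strain, aged 12 weeks. Nuclei had been sorted for NeuN, a protein of neuronal nuclei, from the frontal lobe, and libraries were prepared from SMART-seq2 cDNA. The labels do not give the time between vehicle injection and sampling, and they name no transgene or deletion. The mice of a group carry separate numbers in the labels and were treated as separate animals. In the count-file headers, 24 h mouse 1 carries the number 6, and the label's number is used here.

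DOI (2,5-dimethoxy-4-iodoamphetamine) is a psychedelic that activates serotonin receptors of the type encoded by Htr2a. In the cortex this receptor is found mainly on pyramidal neurons and couples to the G protein Gq, which activates phospholipase C, raises intracellular calcium and leads on to protein kinase C, MAP kinase and CREB signalling. Strong activation switches on immediate early genes within minutes to hours, so an interval of a day lies after that wave. RNA in nuclei is a mixture of newly made, partly spliced and retained transcripts, and its amounts need not follow those of cytoplasmic mRNA. In bulk nuclei, fewer nuclei of a type and less RNA per nucleus cannot be told apart.

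Several measures of the libraries moved with the group. Vehicle mice had between 9151680 and 11517452 counts, and 24 h mice between 6441396 and 8090559. The 18S ribosomal RNA-like feature CT010467.1 took 0.00694% to 0.0101% of the counts of vehicle mice and 0.328%, 1.33%, 0.872% and 1.57% of those of 24 h mice 1 to 4. Single-exon features that lie inside another gene took 0.955% to 1.36% and 1.66% to 2.64%. None of these 3 ranges overlapped between the groups (exact two-sided permutation test, p = 0.0286, the smallest that 4 against 4 mice can give, and 0.0857 after Benjamini-Hochberg adjustment over 18 measures). The mitochondrial genome took 0.0171% to 0.0701% and 0.0621% to 0.101%, with an overlap. Neuronal markers were present in every mouse, and the marker lists are given at the end. The spread between mice, as the biological coefficient of variation, was 21.5% in the vehicle group and 32.8% at 24 h. The part of these measures in the results below was not tested, and group and these measures cannot be told apart in this design.

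**Figure D1:**
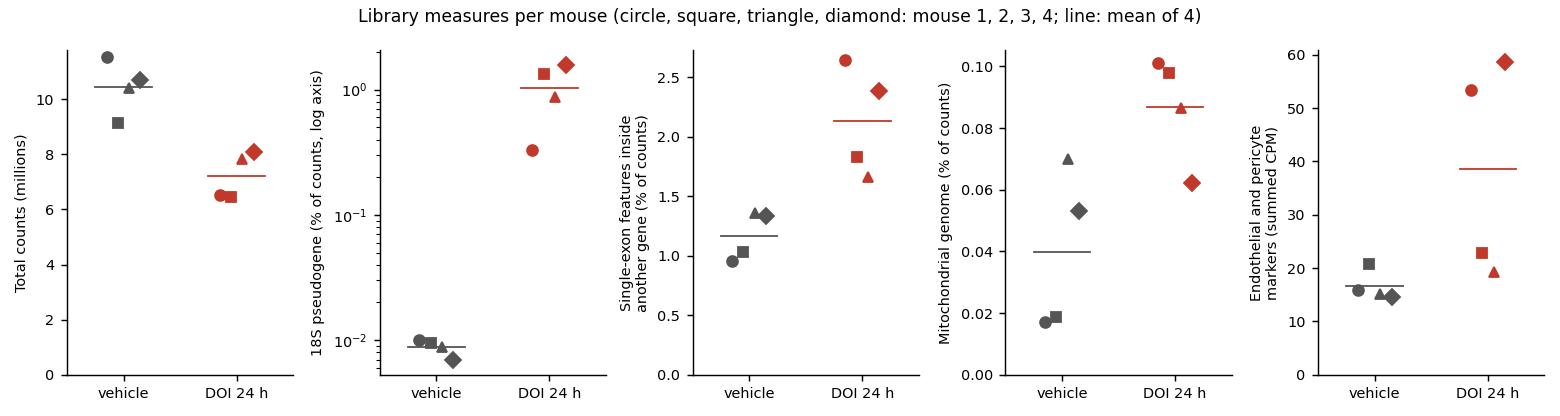
Per-mouse values of 5 library measures, with vehicle mice in grey and 24 h mice in red, symbols for mouse 1 to 4 and a line at the mean. The second panel has a log axis. The 24 h mice lie below the vehicle mice in total counts and above them in the 18S and single-exon shares, while the mitochondrial shares overlap and the endothelial and pericyte sum is highest in 24 h mice 1 and 4.

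The change at 24 h was broad. Of 17941 genes tested, 2477 rose (13.8%) and 1869 fell (10.4%), together 4346 or 24.2%, at an adjusted p below 0.05. The 4 mice of each group did not overlap at 6404 genes (35.7%). The genes that rose changed by more: their median absolute log2 fold change was 1.5, against 0.96 for those that fell, and 854 of them differed by more than 4-fold, against 132. Among protein-coding genes these were 1.1 and 0.93, and 203 and 65 genes. The count was 2550 without 24 h mouse 4, 2576 without vehicle mouse 1 and 2595 without vehicle mouse 2, of which 1572, 1467 and 1465 were higher and 978, 1109 and 1130 lower. Without vehicle mouse 4 the lower calls were 1228. With the 18S share as a term in the model no gene passed (0 calls by edgeR, 870 at an unadjusted p below 0.05), and with the mitochondrial share as a term 264 passed. The 18S term also changed the sign of 16 of the 125 genes named below, counting Xbp1, whose value came to 0.00. Of the calls, 57.0% were higher with the scaling used here, 65.3% with scaling by protein-coding genes alone and 67.3% with scaling to total counts. The overall median log2 fold change went from 0.03 to 0.14 with total counts.

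Gene classes split by direction, where 13.8% of all genes rose and 10.4% fell. Of 13391 protein-coding genes 1517 rose and 1698 fell, with a median log2 fold change of -0.09. Of 1118 long noncoding RNAs 144 rose and 40 fell (median 0.28), and of 729 pseudogenes 117 rose and 36 fell (median 0.20). Among 2513 features with no RefSeq match 658 rose and 90 fell (median 0.92). By position, single-exon features inside other genes leaned to higher. Of 1465 inside a gene of the same strand 456 rose (31.1%) and 48 fell (median 1.12). Of 446 inside a gene of the other strand alone 141 rose (31.6%) and 19 fell (median 1.08). Of 3273 gene models with a provisional Gm name 1972 lie inside another gene. The median over all 3273 was 0.71, and -0.01 with the 18S term. Their calls went from 860 to 452 without vehicle mouse 2. Single-exon features outside other genes had a median of 0.06. Reads were counted without strand, so RNA of the host gene, its introns included, and RNA of the feature cannot be told apart. The same limit holds for 31 of the 125 genes named below whose exons overlap a gene of the other strand: Bcl6, Bhlhe40, Cacnb2, Celf5, Chrm1, Chrnb2, Cry2, Csrnp1, Dgkz, Dusp3, Grin2b, Grm2, Grm7, Hdac7, Hnrnpab, Htr2b, Iqsec1, Mrpl24, Ncam1, Ncor1, Neto2, Nr1d1, Pfkp, Plin4, Rptor, Shank1, Srpr, Syvn1, Unc13a, Zfp335 and Zfp866. Csrnp1, Htr2b, Lrrtm3 and Per3 lie inside another gene. Of 18 microRNA features 11 rose (61.1%) and 2 fell, and 12 of 41 snoRNA features rose (29.3%) and 1 fell. The host-gene limit above holds for any of these that lie inside another gene. In a list of small nuclear and nucleolar RNAs, 16 of 18 tested do.

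Among protein-coding genes the direction went with transcript size. Ordered in 5 equal bins of exonic length, the share of genes that rose was 6.42% in the shortest bin (up to 2642 bases) and 19.3% in the longest (over 7936 bases). The share that fell was 7.05%, 14.3%, 16.5%, 14.9% and 10.6% over the bins, and all calls went from 13.5% to 29.9%. The median log2 fold change was -0.10, -0.24, -0.17, -0.07 and 0.14 from the shortest to the longest. By genomic span the medians were -0.14 under 10 kb, -0.18 from 10 to 30 kb, -0.06 from 30 to 100 kb, 0.11 from 100 to 300 kb and 0.17 above that. Genes that rose had a median exonic length of 6285 bases over 38.4 kb, those that fell 4792 bases over 25.7 kb, and those not called 4414 bases over 25.5 kb. Level mattered in the other direction: of protein-coding genes with a mean log2(CPM + 1) over 8, 29.9% fell and 8.13% rose, and of those under 2, 1.22% fell and 5.85% rose, where CPM, the unit used below, is a gene's count relative to the scaled library size. Abundant genes were also called more often, at 33.8% between 6 and 8. Promoter base composition was a weaker divider. In the 250 bases before and 50 after the RefSeq start, the share that rose was 8.93% in the bin lowest in G and C and 15.8% in the highest, while the share that fell was 12.2% and 11.7%.

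**Figure D2:**
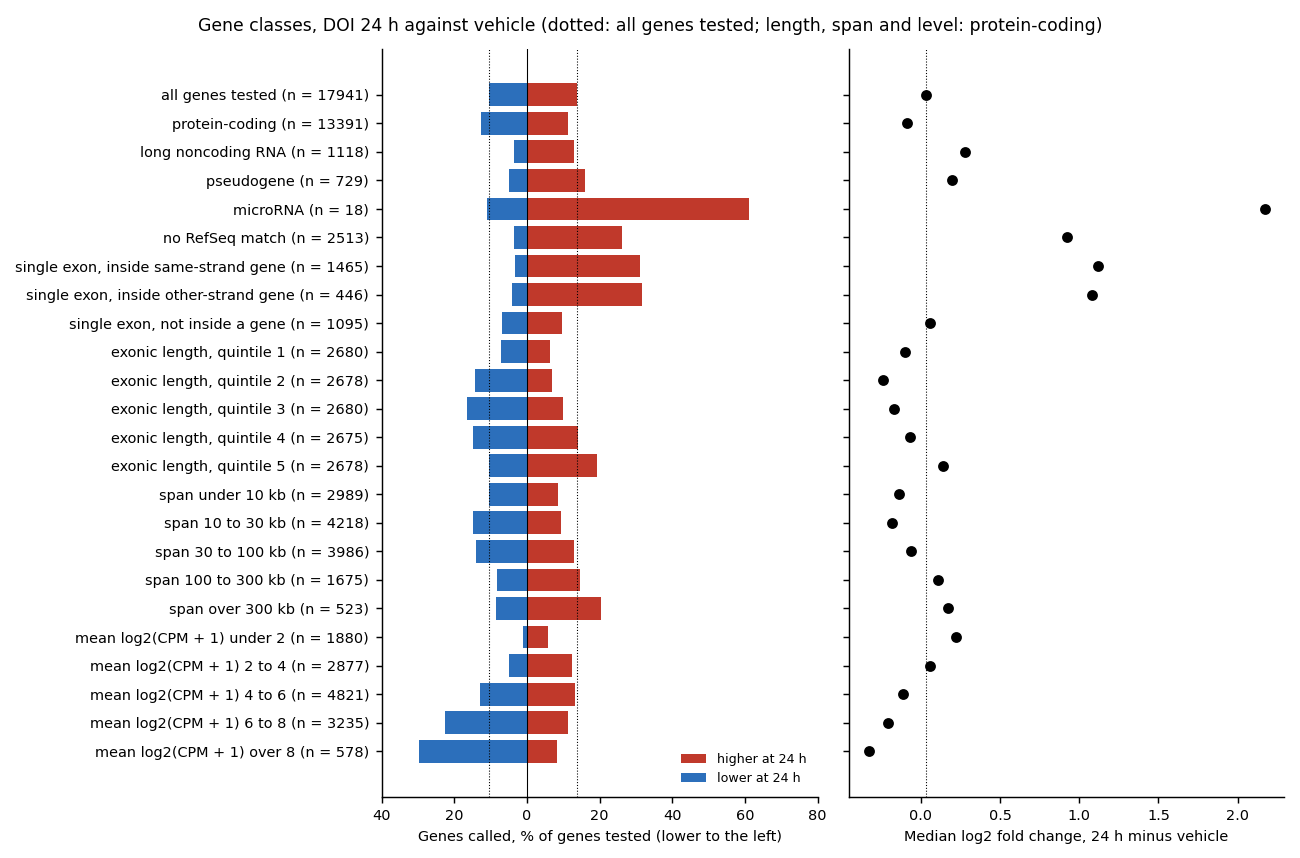
The left panel gives the percent of genes tested that rose (red, to the right) or fell (blue, to the left) at 24 h in each class, and the right panel the median log2 fold change. Dotted lines mark all genes tested. Single-exon features inside other genes and features without a RefSeq match lie far to the right, and abundant protein-coding genes lean to lower.

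The largest changes were ranked among protein-coding genes of 2 or more exons that lie inside no other gene. Their exons also had to be free of overlap with a gene of the other strand. An average log2 CPM of 4 had to be reached, with the mice of the groups fully apart. By this rule the 8 largest increases encode proteins of signalling and of RNA processing, among others. Dagla, which makes the endocannabinoid 2-arachidonoylglycerol (chr19:10245265-10304877, 20 exon blocks), was at 12.7, 11, 13.1 and 10.6 CPM in vehicle mice 1 to 4 and at 197, 227, 219 and 232 CPM in the 24 h mice. Its log2 fold change was 4.20 (SE 0.73, adjusted p = 0.00247). Scaf1, an SR-related splicing factor, rose from 5.19 to 7.10 CPM over the vehicle mice to 121, 67.9, 74.7 and 119.9 CPM at 24 h (log2 fold change 3.90). Wtap, a subunit of the complex that methylates adenosine in mRNA, rose from 11.7 to 14.0 CPM to 155, 99.6, 114 and 119.8 CPM (log2 fold change 3.26). The chromatin-associated coregulator Tcf20 was tight in both groups, at 9.35, 11.6, 9.53 and 12.4 CPM and then 105, 108, 110.2 and 113 CPM (log2 fold change 3.35). Spry2, a feedback inhibitor of receptor tyrosine kinase signalling, rose by 3.52 (SE 0.59) and the receptor tyrosine kinase Kit by 3.48 (SE 0.69) on the log2 scale. In Kit and in Nudt3, a hydrolase of diphosphoinositol polyphosphates (log2 fold change 3.41), the value of 24 h mouse 1 was well below the other 3: 28.8 against 75.4 to 109.8 CPM for Kit, and 101 against 213 to 219 CPM for Nudt3. Cnnm4, a magnesium transporter, rose by 3.78 (SE 0.74), from 3.99 to 5.57 CPM to 34.1 to 82.7 CPM. In none of these 8 genes did the groups overlap, as the rule that chose them required.

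The 8 largest decreases by the same rule included a nutrient-sensing GTPase and a secreted neural protein. Rragb, a Rag GTPase that recruits mTOR complex 1 to lysosomes (chrX:153139981-153171943), fell from 139, 91.5, 110.3 and 126 CPM to 6.09, 6.10, 11.5 and 7.69 CPM (log2 fold change -3.89, SE 0.69, adjusted p = 0.0026). Nell2, a secreted glycoprotein made by neurons (chr15:95075230-95528559), fell from 547, 411, 277 and 254 CPM to 50.6, 68.6, 40.7 and 41.8 CPM (log2 fold change -2.89, SE 0.52). Habp4, an RNA-binding protein, fell from 507 to 656 CPM to 69.9 to 136 CPM, and the actin crosslinker Flna from 130.5 to 159 CPM to 19.6 to 38.4 CPM. Their log2 fold changes were -2.52 and -2.21. Alyref, an adaptor for export of mRNA from the nucleus, fell from 36.6, 49.6, 40.5 and 37.7 CPM to 4.57, 5.06, 6.85 and 10.5 CPM (log2 fold change -2.59, SE 0.54). The other three were Nat14 (-2.71), Rfxap, a subunit of the transcription factor complex of MHC class II genes (-2.32), and Wdr20, a partner of deubiquitinating enzymes (-2.27). Nat14 missed the threshold without 24 h mouse 4 (adjusted p = 0.0521). In Rfxap 24 h mouse 1 was again apart, at 16 CPM against 5.71 to 6.99 CPM.

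**Figure D3:**
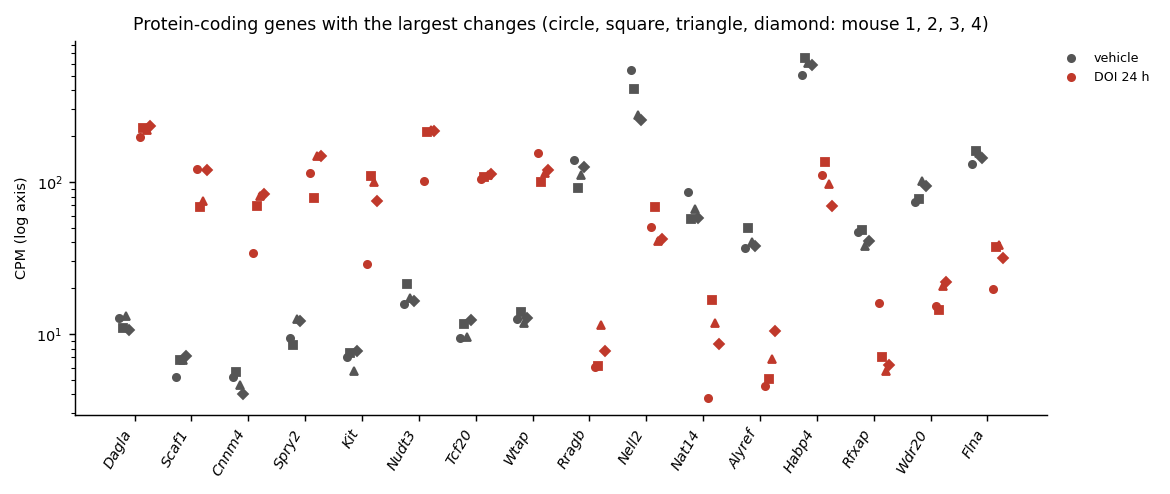
CPM on a log axis for the 8 protein-coding genes that rose most and the 8 that fell most under the rule in the text, vehicle mice in grey and 24 h mice in red with a symbol for each mouse. The groups are apart in every gene by the rule of choice. Dagla runs from 10.6 to 13.1 CPM in vehicle mice and from 197 to 232 CPM at 24 h.

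RNA of the serotonin receptor gene Htr2a was lower. Htr2a (chr14:74640840-74709494, plus strand) was at 122, 143, 122 and 141 CPM in vehicle mice and at 41.4, 55.7, 93.3 and 55.3 CPM at 24 h. All 4 treated mice lay below all 4 vehicle mice, and mouse 3 was the least reduced. The log2 fold change was -1.10 (SE 0.24, adjusted p = 0.00536; 0.00555 to 0.0208 with a mouse left out). Htr1a, an inhibitory serotonin receptor, fell from 17, 21.6, 27 and 25.6 CPM to 7.62, 12.2, 14.6 and 3.55 CPM (log2 fold change -1.27, SE 0.35). Of 13 serotonin receptor genes tested 2 rose and 2 fell, 30.8% against 24.2% of all genes, and the count was 2 without 24 h mouse 4. Htr2b rose from 0.378 to 1.67 CPM to 3.05 to 6.85 CPM, at a level close to the 3-count limit of 0.260 to 0.466 CPM, inside another gene, and it missed the threshold in 6 of 8 fits that left out a mouse (adjusted p up to 0.0897).

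Other amine and acetylcholine receptors moved in both directions: of 18 tested 2 rose and 4 fell (33.3% called, against 24.2% of all genes). With scaling by protein-coding genes alone 5 rose and 1 fell. The nicotinic subunit gene Chrnb2 rose from 18.9, 13.5, 12.6 and 10.9 CPM to 97.2, 142, 152 and 125 CPM (log2 fold change 3.2, SE 0.52). The muscarinic receptor gene Chrm1, whose product also couples to Gq, rose from 54.5 to 72.8 CPM to 165, 482, 431 and 300.4 CPM, lowest in 24 h mouse 1 (log2 fold change 2.41). The adrenergic receptor Adra2c fell from 6.13 to 7.37 CPM to 1.68 to 2.25 CPM (log2 fold change -1.79). Drd1, the dopamine receptor of direct-pathway and some deep cortical neurons, fell by 0.90 on the log2 scale and missed the threshold in 5 of 8 fits with a mouse left out (adjusted p up to 0.0878). The list's count was 3 without 24 h mouse 3 or 4 or vehicle mouse 1, 2 or 3.

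Fast inhibitory and excitatory receptors differed by subunit. Of 14 GABA receptor genes tested 2 rose and 3 fell (35.7% called, against 24.2% of all genes). Gabrb2, a subunit of the GABA-A receptor channel, fell from 247, 222, 208 and 232 CPM to 112, 111, 106 and 137 CPM (log2 fold change -0.96, SE 0.22, adjusted p = 0.00596). Both subunits of the metabotropic GABA-B receptor rose: Gabbr1 from 107 to 131 CPM to 227 to 268 CPM (log2 fold change 1.11) and Gabbr2 from 169 to 192 CPM to 250.4 to 294 CPM (0.65, adjusted p = 0.0505 with no filter).

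Among 25 genes of ionotropic glutamate receptors and their auxiliary proteins 6 rose and 2 fell (32% called). Grin2b, an NMDA receptor subunit, rose from 393, 297, 310.2 and 289.7 CPM to 893, 1097, 944 and 994 CPM (log2 fold change 1.61, SE 0.30, adjusted p = 0.00308). Cacng8, an auxiliary subunit of AMPA receptors, rose from 0.876 to 1.08 CPM to 5.58 to 7.31 CPM, and the kainate receptor subunit Grik4 from 23.8 to 27.5 CPM to 34.5 to 68.8 CPM. The kainate receptor auxiliary gene Neto2 fell from 222 to 258 CPM to 76.8 to 112 CPM (log2 fold change -1.42). Of 7 metabotropic glutamate receptors 1 rose and 2 fell (42.9% called, against 24.2% of all genes), and the count was 1 without 24 h mouse 1 or vehicle mouse 1. Grm7, a presynaptic receptor, fell from 314 to 347 CPM to 98.1 to 159 CPM (log2 fold change -1.26). Grm2, another presynaptic inhibitory receptor, fell from 90.9 to 132 CPM to 21.2, 51.8, 53.0 and 36.0 CPM (log2 fold change -1.37), and missed the threshold in 3 of 8 fits with a mouse left out (adjusted p up to 0.0700).

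Grk2, the kinase that phosphorylates active receptors, rose from 12.2, 6.94, 10.8 and 10.8 CPM to 32.3, 45.2, 43.2 and 43.1 CPM (log2 fold change 2.00, SE 0.30). Dgkz, which removes diacylglycerol, rose from 32.8 to 40.1 CPM to 53.2 to 107 CPM (1.31). Rgs4 and Rgs7, which speed the shut-off of G proteins, fell: Rgs4 from 1158, 1136, 1372 and 1104 CPM to 329, 409, 543 and 391 CPM (-1.51), and Rgs7 from 221 to 276 CPM to 90.1 to 139 CPM (-1.17). In the Gq and phospholipase C list 4 of 28 rose and 4 fell, 28.6% called and near the 24.2% of all genes, and 5 were called without 24 h mouse 2.

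In the cAMP, CREB and CaM kinase list 11 of 44 rose and 5 fell, 36.4% called against 24.2% of all genes. Crtc1, a coactivator of CREB, rose from 46.3 to 55.0 CPM to 97.9, 209, 184 and 195 CPM (log2 fold change 1.76, SE 0.27). The phosphodiesterases Pde4a and Pde4d, which break down cAMP, rose by 0.99 and 1.44 on the log2 scale. Ppp3r1, the regulatory subunit of calcineurin, fell from 656 to 876 CPM to 173, 239, 341 and 147 CPM (log2 fold change -1.74). Of 31 MAP kinase pathway genes and their feedback inhibitors 10 rose and 5 fell (48.4% called). Those that rose included the inhibitors Spry2, given above, and Dusp3, a phosphatase of MAP kinases, which went from 6.82 to 9.73 CPM to 16.9, 47, 55.1 and 42.7 CPM (log2 fold change 2.32), lowest in 24 h mouse 1. The MAP kinase count was 9 without 24 h mouse 2 or 4 or vehicle mouse 1 or 2.

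**Figure D4:**
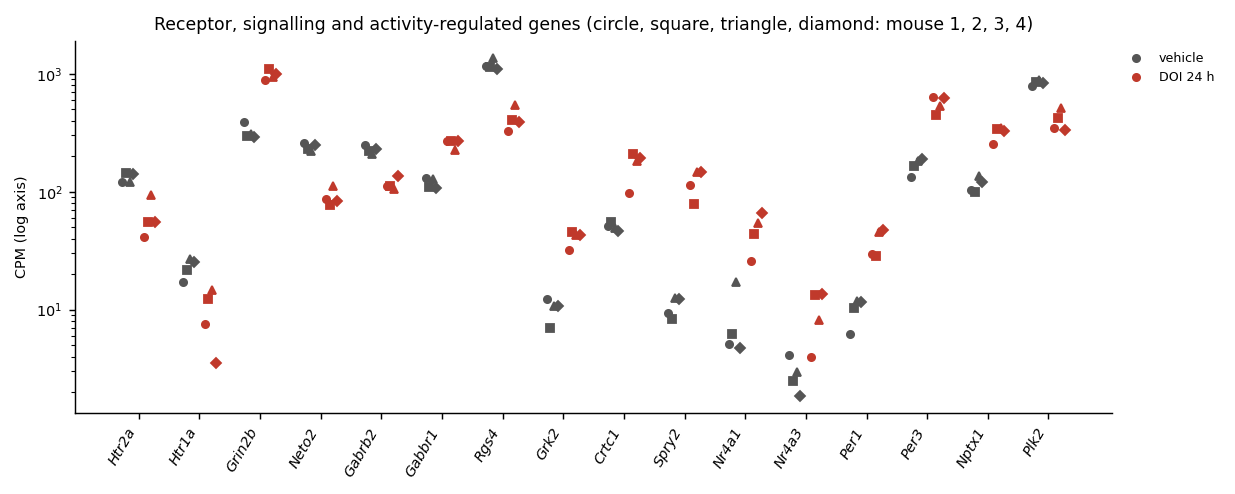
CPM on a log axis for receptor, signalling, activity-regulated and clock genes described in the text, vehicle mice in grey and 24 h mice in red with a symbol for each mouse. Of the genes plotted, only Nr4a3 overlaps between the groups, where 24 h mouse 1 lies among the vehicle mice. Htr2a runs from 122 to 143 CPM in vehicle mice and from 41.4 to 93.3 CPM at 24 h.

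Of 19 immediate early transcription factors tested 4 rose and 1 fell (26.3% called, near the 24.2% of all genes), and 3 were called without 24 h mouse 2 or vehicle mouse 1. Nr4a1, a nuclear receptor induced by activity, rose from 5.10, 6.25, 17.1 and 4.77 CPM to 25.9, 43.5, 54.1 and 65.5 CPM (log2 fold change 2.51, SE 0.51, adjusted p = 0.00392). Its relative Nr4a3 rose from 4.15, 2.50, 2.95 and 1.85 CPM to 3.96, 13.2, 8.11 and 13.6 CPM (1.76), with 24 h mouse 1 inside the vehicle range. The AP-1 subunit Fosl2 rose from 3.05 to 4.15 CPM to 6.85 to 10.4 CPM (1.45). Csrnp1 rose by 2.22 from a level of 0.189 to 0.569 CPM to one of 0.457 to 2.13 CPM, with an overlap, and the repressor Klf10 fell by 0.97. The Csrnp1 values of vehicle mice 1, 3 and 4 (0.189, 0.196 and 0.195 CPM) lie below the 3-count limit of 0.260 to 0.466 CPM. Csrnp1 missed the threshold in 6 of 8 fits with a mouse left out (adjusted p up to 0.102) and Klf10 in 4 (up to 0.0773).

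Of 26 activity-regulated effector genes 5 rose and 2 fell (26.9% called, near the 24.2% of all genes), with a median log2 fold change of 0.02, and 4 were called without 24 h mouse 2 or vehicle mouse 1 or 3. Nptx1, a neuronal pentraxin that clusters AMPA receptors, rose from 103, 100.1, 135 and 121 CPM to 256, 339, 346 and 328 CPM (log2 fold change 1.47). Plk2, a kinase of synaptic downscaling, fell from 789.9, 847, 881 and 832 CPM to 349.9, 422, 512 and 334 CPM (-1.05). Per1, a clock repressor that is also induced by CREB and by the glucocorticoid receptor, rose from 6.23, 10.3, 11.8 and 11.5 CPM to 29.5, 28.7, 45.4 and 47.2 CPM (1.92, SE 0.32, adjusted p = 0.00196).

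Of 21 clock genes 3 rose and 2 fell (23.8% called, near the 24.2% of all genes), and 3 were called without 24 h mouse 2 or 4 or vehicle mouse 2 or 3. Besides Per1, the clock repressors Per3 (log2 fold change 1.74) and Nr1d1 (1.68) rose. Per3 went from 134 to 188 CPM to 451 to 636 CPM, and Nr1d1 from 12.7 to 16.7 CPM to 19.2, 49.0, 53.9 and 67.5 CPM. Bhlhe40 and Cry2, also repressors of the clock, fell by 0.99 and 0.63, and missed the threshold in 5 and 7 of 8 fits with a mouse left out (adjusted p up to 0.0835 and 0.113). The hour of day of sampling is not given in the labels. Of 19 genes of the glucocorticoid receptor and its known targets 5 rose and 4 fell (47.4% called, against 24.2% of all genes). Their count was 5 without 24 h mouse 1 or 4 or vehicle mouse 1. Plin4, a coat protein of lipid droplets, had no count in vehicle mice 1 and 3, 0.114 and 0.0973 CPM in mice 2 and 4, which is below the 3-count limit, and 6.55, 15.2, 11.8 and 13.0 CPM at 24 h. The kinase gene Sgk1 fell from 149.7 to 239 CPM to 81.8 to 116 CPM (-0.93), and Errfi1, an inhibitor of the EGF receptor, fell by 1.17, so that known targets of this receptor moved both ways.

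Promoters of some, not all, of the activity-regulated genes that rose are shown because cyclic AMP response elements are a textbook feature of such genes. The 250 bases before the RefSeq start (build GRCm38.p6, plus strand, 5′ to 3′) of Nr4a1 (chr15:101266596-101266845), Nr4a3 (chr4:48045055-48045304) and Per1 (chr11:69098699-69098948) are printed with the response element half-site TGACG, on either strand, in capitals.
Nr4a1: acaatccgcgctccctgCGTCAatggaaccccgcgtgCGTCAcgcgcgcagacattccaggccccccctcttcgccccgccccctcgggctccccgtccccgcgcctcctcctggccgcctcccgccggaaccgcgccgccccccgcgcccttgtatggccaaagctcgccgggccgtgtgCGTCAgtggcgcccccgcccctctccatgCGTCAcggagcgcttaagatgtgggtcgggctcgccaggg
Nr4a3: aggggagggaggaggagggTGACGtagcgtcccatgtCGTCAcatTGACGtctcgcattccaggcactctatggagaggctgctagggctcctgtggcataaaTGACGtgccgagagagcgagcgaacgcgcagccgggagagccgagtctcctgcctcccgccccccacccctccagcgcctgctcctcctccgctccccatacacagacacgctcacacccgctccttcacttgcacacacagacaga
Per1: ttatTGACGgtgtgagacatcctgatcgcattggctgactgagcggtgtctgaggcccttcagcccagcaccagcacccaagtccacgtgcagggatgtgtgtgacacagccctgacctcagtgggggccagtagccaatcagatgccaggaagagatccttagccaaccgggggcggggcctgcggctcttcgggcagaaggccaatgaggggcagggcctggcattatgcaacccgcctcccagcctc

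The 2 Nr4a promoters each hold 4 half-sites, and Per1 holds 1 at this start. The same window of Fosl2 holds 0 and that of Csrnp1 holds 1. Across windows of 300 bases, the half-site occurs in 31.4% of 10717 tested protein-coding genes with a promoter in the table and in 21.0% of all 27026 promoters of the table. It was not more common among genes that rose: 30.9% of 1212 that rose, 36.9% of 1352 that fell and 30.6% of 8153 not called held it. The full palindromic element TGACGTCA, which contains the half-site, was in 3.55% of genes that rose, 4.73% of those that fell and 3.03% of those not called. The E-box CACGTG, the site of clock activators, was in 8.83%, 12.1% and 9.89%. A match is a description of these letters and shows no binding.

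Of 39 sodium, calcium and HCN channel genes 12 rose and 4 fell (41.0% called against 24.2% of all genes), with a median log2 fold change of 0.47 against 0.03 for all genes. With the 18S term the list's median was -0.14. Scn8a, a sodium channel of the axon initial segment, rose from 284, 298, 293 and 300.1 CPM to 717, 572, 554 and 557 CPM (1.03, SE 0.21). The calcium channels Cacna1c and Cacna1e rose by 1.10 and 1.00, and Cacnb2, an auxiliary calcium channel subunit, fell from 72.6 to 119 CPM to 27.3 to 43.5 CPM (-1.34). The list's count was 6 to 10 without 24 h mouse 2 or 4 or any vehicle mouse. Of 46 potassium channels 7 rose and 6 fell (28.3% called, near the 24.2% of all genes, and 7 or 8 called without 24 h mouse 4 or vehicle mouse 1 or 2). Kcnq3, a subunit of the M current, rose from 39.6 to 56.8 CPM to 130.1 to 161 CPM (1.62), and Kcnh1, a delayed rectifier, fell from 138, 127, 85.4 and 85.1 CPM to 48.4, 28.0, 23.1 and 25.7 CPM (-1.80).

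Of 29 postsynaptic scaffold genes 9 rose and 3 fell (41.4% called against 24.2% of all genes, median 0.34, and 0.14 with the 18S term). Shank2 rose from 36.4 to 47.1 CPM to 85.3 to 107 CPM (1.29) and Shank1, its paralogue, fell from 281, 299, 321 and 322 CPM to 75.7, 143, 85.8 and 187 CPM (-1.31). Iqsec1, an exchange factor of postsynaptic trafficking, rose by 1.31. Of 52 genes of the vesicle cycle and release 13 rose and 7 fell (38.5% called), and 12 or 13 were called without 24 h mouse 1 or 4 or vehicle mouse 1 or 2. The release-priming paralogues Unc13a and Unc13c moved apart: Unc13a rose from 48.4 to 64.0 CPM to 159.6 to 189.6 CPM (1.70), and Unc13c fell from 19.8 to 25 CPM to 4.02 to 8.24 CPM (-1.95). Bsn, a scaffold of the active zone, rose by 1.63.

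Adhesion genes were called in equal measure each way, with 9 of 39 higher and 10 lower (48.7% called, 12 called without 24 h mouse 4). The receptor phosphatase Ptprs rose from 143 to 196 CPM to 321 to 423 CPM (1.16) and Ncam1 from 248 to 301 CPM to 470.4 to 569 CPM (0.87). The leucine-rich-repeat adhesion genes Lrrc4c and Lrrtm3, postsynaptic organisers of excitatory synapses, fell by 0.89 and 1.03. Of 54 axon guidance genes 9 rose and 5 fell, near the share of all genes, with a median of 0.37 (0.15 with the 18S term) and 6 to 9 called without 24 h mouse 2 or 4 or vehicle mouse 1, 2 or 3. With scaling by protein-coding genes alone 14 of the 54 rose and 2 fell. The ligand Slit3 rose from 15.8 to 17.8 CPM to 77.2, 64.7, 36.9 and 79.3 CPM (1.95), and the netrin Ntn4 fell from 13.7 to 19.1 CPM to 1.07 to 4.82 CPM (-2.53). Of 39 genes of microtubules and motors 6 rose and 4 fell (25.6% called, near the 24.2% of all genes, and 5 or 6 called without 24 h mouse 4 or vehicle mouse 1, 2 or 4). The axonal microtubule protein Mapt rose from 138 to 144 CPM to 303 to 387 CPM (1.26), and the vesicle motor gene Kif1a fell from 421 to 687 CPM to 198 to 270.4 CPM (-1.26).

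Cytosolic ribosomal proteins are the structural proteins of the ribosome. Of 82 tested 43 rose and 0 fell by edgeR (1 lower at an unadjusted p below 0.05, 0 by DESeq2, 1 by limma voom and 1 by edgeR on the 8 mice alone), 52.4% called against 24.2% of all genes, and the fold change was above 0 in 75. The median log2 fold change was 0.83. Summed over the list, vehicle mice had 2001, 2058, 1800.2 and 1719.9 CPM and the 24 h mice 3081, 3175, 2872 and 3787 CPM, with no overlap. Both subunits took part: 22 of 49 genes of the large subunit and 21 of 33 of the small subunit rose. Rps21, of the small subunit, rose from 11.6 to 14.2 CPM to 45.5, 26.9, 30.0 and 41.1 CPM (1.46, SE 0.28), and Rpl9 from 35.7 to 39.8 CPM to 78.1 to 122 CPM (1.41). These genes have many processed copies in the genome, so reads of single members are uncertain. The count was 28 without 24 h mouse 4, and the list's median was -0.03 with the 18S share as a term in the model.

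Other lists of protein synthesis differed from one another. Of 20 tRNA synthetases, the enzymes that charge tRNAs with amino acids, 8 fell and 1 rose (45.0% called, median -0.48, and -0.09 with the 18S term). Sars fell from 767, 829, 562 and 569 CPM to 233, 304, 344 and 264 CPM (-1.25), and Eprs from 216 to 287 CPM to 120.5 to 159 CPM (-0.82). Initiation and elongation factors were divided, 9 higher and 10 lower of 57 (33.3% called, against 24.2% of all genes), with a median of -0.07 that becomes positive under total-count scaling (0.04). That list includes the kinases of initiation factor 2, and its count was 9 to 12 without 24 h mouse 2 or 4 or any vehicle mouse. The elongation factor Eef1a1 rose from 75.1, 68.3, 46.1 and 44.4 CPM to 112, 235, 185 and 176 CPM (1.60). The initiation factors Eif5 (-1.23) and Eif4e, which binds the cap (-0.72), fell. Of 77 mitochondrial ribosomal proteins 12 fell and 3 rose (19.5% called, below the 24.2% of all genes, and 9 called without 24 h mouse 4). Among them Mrpl24 fell from 71.5 to 90.5 CPM to 24.2 to 40.5 CPM (-1.24).

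Srpr, the receptor subunit that docks ribosomes at the endoplasmic reticulum, was at 129, 108, 116 and 88.3 CPM in vehicle mice and at 6.40, 9.08, 6.47 and 7.46 CPM at 24 h (-3.91, SE 0.63, adjusted p = 0.00176). Of 23 genes of that targeting pathway 6 fell and 2 rose (34.8% called, against 24.2% of all genes, and 5 called without 24 h mouse 1 or vehicle mouse 1 or 2). Of 24 genes of the unfolded protein and integrated stress responses 8 fell and 3 rose (45.8% called against 24.2% of all genes), with a median of -0.32 (0.01 with the 18S term) and 4 to 6 called without 24 h mouse 1 or 4 or vehicle mouse 1. Xbp1, a transcription factor of the unfolded protein response, fell from 285 to 421 CPM to 107 to 169 CPM (-1.14). Atf4, the transcription factor of the integrated stress response, rose from 88.0 to 102 CPM to 127 to 161 CPM (0.64, adjusted p = 0.0587 with no filter), and the ubiquitin ligase gene Syvn1 from 12.8 to 14.9 CPM to 80.6 to 156 CPM (3.22). Of 36 proteasome subunits 7 fell and 0 rose by edgeR (1 higher at an unadjusted p below 0.05, 0 by DESeq2 and 2 by limma voom), 19.4% called against 24.2% of all genes, with Psmd5 (-0.90) and Psmd12 (-0.79) among them. The proteasome count was 4 without 24 h mouse 4 and 3 without vehicle mouse 1. Heat shock proteins and chaperones, which fold proteins, were split, with 10 of 46 higher and 8 lower (39.1% called, against 24.2% of all genes, and 9 or 10 called without 24 h mouse 1 or 4 or vehicle mouse 1).

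Of 31 genes of glycolysis and the tricarboxylic acid cycle, taken as 1 list, 9 fell and 0 rose by edgeR, 29.0% called against 24.2% of all genes. At an unadjusted p below 0.05 there was 1 higher, DESeq2 called 1 higher and limma voom 3. With scaling by protein-coding genes alone edgeR called 1 higher and 8 lower. The list's median was -0.53, and -0.15 with the 18S term. Sucla2, of succinyl-CoA synthetase, fell from 414, 401, 432 and 424 CPM to 196, 185, 257 and 180.1 CPM (-1.03). Dlat, of the pyruvate dehydrogenase complex, fell from 90.9 to 116 CPM to 50.3 to 56.3 CPM (-0.97), and the phosphofructokinase Pfkp from 891 to 1122 CPM to 499 to 635 CPM (-0.75). The count was 4 without 24 h mouse 1 or 4 or vehicle mouse 1 or 2. Of nuclear genes of oxidative phosphorylation 6 of 79 were called (7.59% against 24.2% of all genes), 2 higher and 4 lower, with a median of 0.07 and 2 or 3 called without 24 h mouse 2 or vehicle mouse 2 or 4. That median was -0.19 with the 18S term. With scaling by protein-coding genes alone 5 of the 79 rose and 2 fell. Lysosome and autophagy genes had 7 lower and 2 higher of 42 (21.4% called, below the 24.2% of all genes, with a median of -0.29, and -0.06 with the 18S term, and 5 called without 24 h mouse 4 or vehicle mouse 3 or 4). The proton pump subunit Atp6v1c1 fell from 458 to 583 CPM to 133 to 278 CPM (-1.31). In the mTOR pathway 7 of 42 rose and 9 fell (38.1% called), with Rragb among the latter. Foxo3, a transcription factor restrained by Akt, rose from 13.9 to 17 CPM to 50.3 to 63.0 CPM (1.89), and Rptor, the scaffold of mTOR complex 1, by 0.96. The mTOR count was 7 to 10 without any 1 vehicle mouse.

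Of 37 writers, erasers and readers of histone acetylation and regulators of H3K27 15 rose and 5 fell (54.1% called, against 24.2% of all genes). The list's median was 0.40, and 0.18 with the 18S term. Kat6b, a histone acetyltransferase, rose from 31.7, 24.8, 31.2 and 32.2 CPM to 205, 185, 173 and 221 CPM (2.71, SE 0.50, adjusted p = 0.00305). The corepressor gene Ncor1 fell from 396 to 428 CPM to 181 to 288 CPM (-0.86). The deacetylase gene Hdac7 rose by 1.47. The count was 11 to 13 without 24 h mouse 4 or vehicle mouse 1 or 2. Of 56 other chromatin and DNA methylation regulators 18 rose and 4 fell (39.3% called, against 24.2% of all genes). Their median was 0.30, and -0.01 with the 18S term, with 15 to 21 called when a mouse was left out. The remodellers Chd3 (0.95) and Arid1a (1.22) rose, and the remodeller Chd4 fell from 45.1 to 48.4 CPM to 22.2 to 27.1 CPM (-0.93).

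Of 61 SR and hnRNP proteins 11 rose and 12 fell (37.7% called, and 15 called without 24 h mouse 4 or vehicle mouse 4). Celf5, a neuronal splicing regulator, rose from 6.25 to 8.37 CPM to 33.2 to 62.1 CPM (2.62), and the SR-like protein gene Tra2b from 28.3 to 38.3 CPM to 187, 93.8, 110 and 149.7 CPM (1.93). Hnrnpab fell from 52.1 to 62.9 CPM to 11.9 to 15.2 CPM (-2.09). In the core spliceosome 5 of 45 rose and 12 fell (37.8% called), with 8 to 11 called without 24 h mouse 1 or 4 or any vehicle mouse. Sf3b1, which recognises the branch point, fell from 2125, 2104, 2231 and 2463 CPM to 772, 725, 746 and 728 CPM (-1.59, SE 0.26), and the ubiquitin ligase subunit Prpf19 rose by 1.67. The list's median of -0.03 turns to 0.08 under total-count scaling. With scaling by protein-coding genes alone 7 of its genes rose and 7 fell. Of 343 genes named as zinc finger proteins, most of them DNA-binding, 67 fell and 24 rose, 26.5% called against 24.2% of all genes, with a median of -0.27 (0.00 with the 18S term), and 54 and 59 were called without 24 h mouse 4 and without vehicle mouse 2. Zfp335 rose from 3.41 to 5.19 CPM to 30.5 to 59.7 CPM (3.44) and Zfp866 fell from 66.3 to 88.2 CPM to 22.5 to 35.4 CPM (-1.58).

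**Figure D5:**
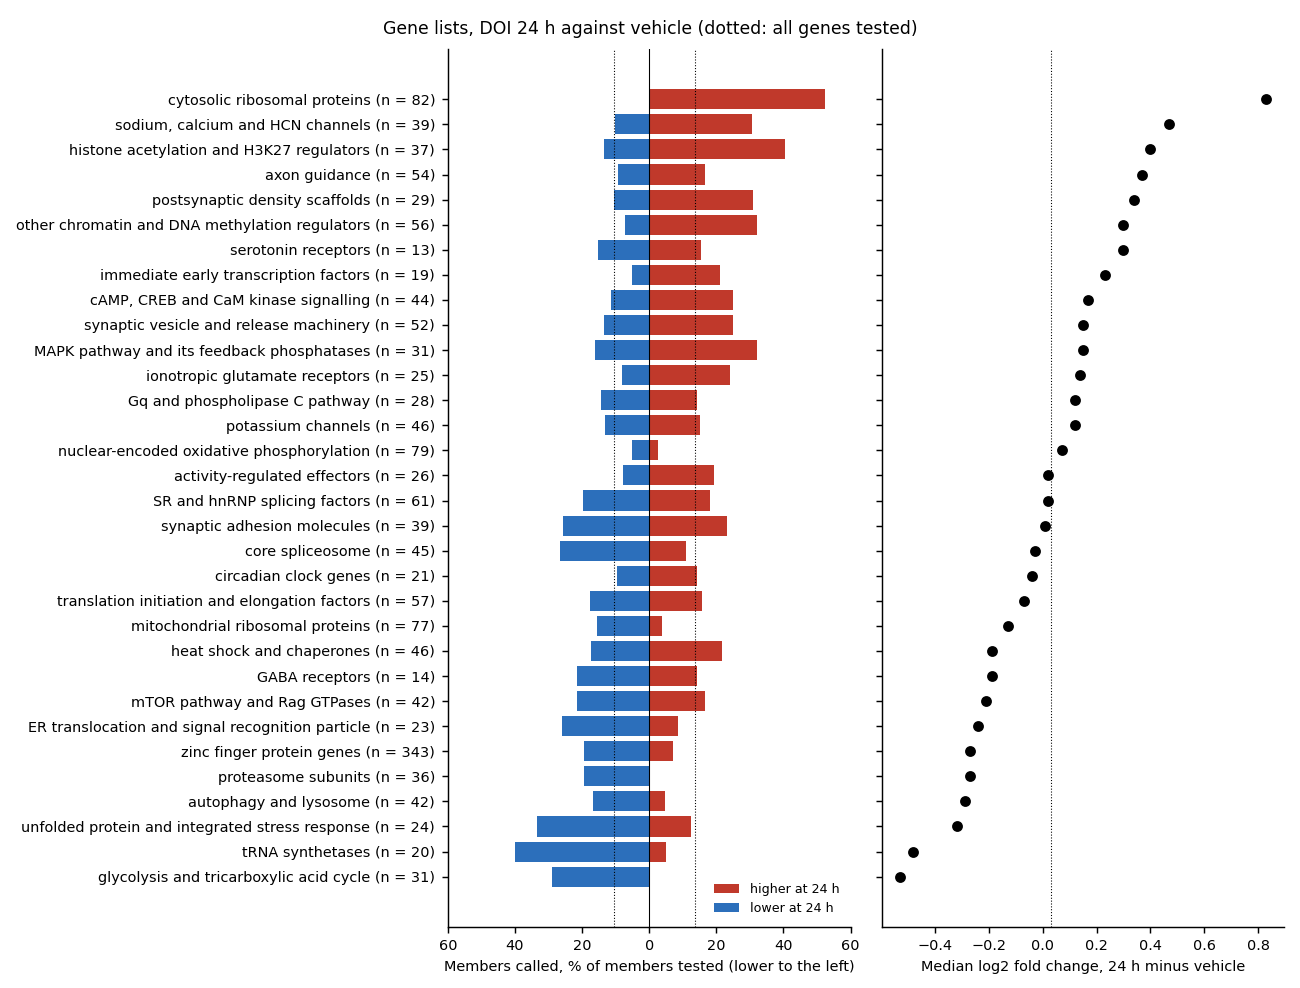
For 32 gene lists, the left panel gives the percent of tested members that rose (red, to the right) or fell (blue, to the left) and the right panel the median log2 fold change, with lists ordered by that median and dotted lines for all genes tested. The cytosolic ribosomal proteins stand at the top with 43 of 82 higher, and glycolysis and the tricarboxylic acid cycle at the bottom with 9 of 31 lower.

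Among the called members of the nuclear long noncoding RNA list, 3 lie in the imprinted Dlk1-Dio3 cluster on chromosome 12, and each rose. Meg3 went from 4178, 5302, 5859.6 and 5603 CPM to 14716, 10730.2, 9579 and 14158 CPM (1.23, SE 0.28), Rian from 219.5 to 383 CPM to 694 to 931 CPM (1.33) and Mirg from 11.4 to 20.6 CPM to 39.7 to 59.6 CPM (1.53). Rian missed the threshold without vehicle mouse 1 (adjusted p = 0.0553). In the list of 19 nuclear long noncoding RNAs 6 rose and 2 fell (42.1% called, against 24.2% of all genes), with 3 to 5 called without 24 h mouse 1 or vehicle mouse 1 or 2.

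Of the neuron markers, 2 of 9 for excitatory neurons rose and 1 fell (33.3% called, against 24.2% of all genes). Of the rest, 4 of 10 upper-layer markers rose (40.0% called, 0 lower by edgeR, by DESeq2 and at an unadjusted p below 0.05), 4 of 15 deep-layer markers rose and 1 fell (33.3%), and 3 of 18 interneuron markers rose and 4 fell (38.9%). With scaling by protein-coding genes alone 5 interneuron markers rose and 2 fell. With a mouse left out, the excitatory count was 1 without 24 h mouse 1 or 4 or vehicle mouse 1 or 4, and the upper-layer count 2 without 24 h mouse 3 or vehicle mouse 1 or 2. The deep-layer count was 2 or 3 without 24 h mouse 2 or 4 or vehicle mouse 2, 3 or 4, and the interneuron count 3 or 4 without 24 h mouse 1, 2 or 4 or vehicle mouse 2 or 4. Summed excitatory neuron markers were 1159 to 1379 CPM in vehicle mice and 1151 to 2896 CPM at 24 h, and summed interneuron markers 2815 to 4944 CPM and 3595 to 5117 CPM, both with overlap. Tbr1, a transcription factor of excitatory neurons, rose from 38.1 to 49 CPM to 120.5, 59.2, 60.3 and 63.4 CPM (0.83, adjusted p = 0.0347), and missed the threshold in 6 of 8 fits with a mouse left out (up to 0.158). The vesicular glutamate transporter Slc17a7 was at 129 to 171 CPM and 57.7 to 109.7 CPM (log2 fold change -0.80, adjusted p = 0.0616 by edgeR, and 0.00463 to 0.0437 with DESeq2, limma voom, no filter or the 8 mice alone), and the GABA-synthesising enzyme Gad1 fell from 529 to 706 CPM to 289.9 to 448 CPM (-0.84). Gad2 fell by 0.63 and missed the threshold in 6 of 8 fits with a mouse left out (adjusted p up to 0.106). The upper-layer marker Cux2 rose from 8.40 to 13.2 CPM to 22.7 to 39.1 CPM (1.57), with no overlap. Of the deep-layer markers Bcl6 (2.08), Tshz2 (1.28), Sulf1 (1.16) and Ntsr1 (1.41) rose, Bcl6 from 2.84 to 4.81 CPM to 15.5 to 17.7 CPM, and Tle4 fell from 91.5 to 117 CPM to 52.4 to 63.8 CPM (-0.84). With a mouse left out, Tshz2 missed the threshold in 2 of 8 fits, Sulf1 in 5 and Ntsr1 in 7 (adjusted p up to 0.0609, 0.0913 and 0.0931). The medians were 0.51 over the deep-layer list (-0.29 with the 18S term) and 0.30 over the excitatory list (0.20 with it). Upper-layer markers summed to 917 to 1009.8 CPM in vehicle mice and 863 to 1335 CPM at 24 h, and deep-layer markers to 477 to 609.8 CPM and 558 to 818 CPM, both with overlap. Summed striatal projection neuron markers were 723 to 832 CPM and 617 to 706 CPM, with no overlap (exact permutation test, adjusted p = 0.0857). Of 14 tested 2 fell and 0 rose by edgeR (14.3% called, below the 24.2% of all genes). At an unadjusted p below 0.05 there was 1 higher, and limma voom called 1 higher. The striatal count was 0 without 24 h mouse 4 or vehicle mouse 1 or 2.

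Of 10 astrocyte markers 1 rose (10.0% called, below the 24.2% of all genes). The count was 0 without 24 h mouse 1, 3 or 4 or vehicle mouse 1, 2 or 3. The astrocyte markers summed to 814 to 888 CPM in vehicle mice and 1271, 879, 875 and 957 CPM in 24 h mice 1 to 4. That sum is of the same order as that of the upper-layer markers. Of 11 oligodendrocyte markers 1 rose and 1 fell (18.2% called), with sums of 199 to 472 CPM and 190.3 to 329 CPM. Their count was 0 without 24 h mouse 1 or 4 or vehicle mouse 2, 3 or 4, and 3 without vehicle mouse 1. Of 6 precursor cell markers 1 rose (16.7% called), with sums of 16.1 to 40.6 CPM and 20 to 33.5 CPM. The precursor count was 0 without 24 h mouse 2 or 4 or any 1 vehicle mouse. Summed microglia markers were 177 to 212 CPM in vehicle mice and 116 to 213 CPM at 24 h, and none of 11 was called in either direction by edgeR or DESeq2, with 0 at an unadjusted p below 0.05, while limma voom called 1 lower. Of 7 endothelial and pericyte markers 3 rose and 0 fell (42.9% called, against 24.2% of all genes), also with 0 lower at an unadjusted p below 0.05 and by DESeq2. Their sum was 14.6 to 20.8 CPM in vehicle mice and 53.3, 22.8, 19.3 and 58.6 CPM in 24 h mice 1 to 4. Ly6c1, an endothelial surface protein, was at 8.53 and 8.76 CPM in 24 h mice 1 and 4 and at most 0.595 CPM in the other 6 mice. The list's count was 0 without 24 h mouse 4 and 1 without 24 h mouse 1 or vehicle mouse 1, 2 or 4. Slco1a4, an endothelial transporter, and Vtn, made by pericytes, were the other 2 that rose, with adjusted p up to 0.216 and 0.146 when a mouse was left out. Their part in the gene groups above was not tested.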

How the data were processed

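The authors deposited a table per RNA library of whole-number counts per gene, made with featureCounts v2.0.0 over exons by gene identifier of a GRCm38 annotation, per the file headers. No option for strand, read pairs, multiple mapping or overlapping genes appears in those headers. The build was mm10, per the submitters' processing notes, and the RNA aligner is not given in the sources used here. The values carry no normalization.

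The 2 libraries of a mouse were summed. edgeR 4.0.16 (R 4.3.3) fitted the 16 mice of all 4 groups of RNA together with the quasi-likelihood test, TMM scaling and its own expression filter, which kept 17941 genes. Calls have a Benjamini-Hochberg adjusted p below 0.05. CPM uses the scaled library size, and a standard error is the log2 fold change over the square root of F. The script was tested on simulated counts. Gene types, spans and promoters came from RefSeq tables (GRCm38.p6). Total counts were 6441396 to 11517452 per mouse, where 3 counts correspond to 0.260 to 0.466 CPM.

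Genes were named by rule: Htr2a, the 8 largest clear changes each way, up to 4 called members of each list by smallest p (all where 5 or fewer were called), and the first markers of each cell type. Genes on 1 chromosome and some others that the rule gives are not reported here. The members and lists were chosen with earlier results of these data known. Alternatives were other scalings, filters and tools (DESeq2 1.42.0, limma 3.58.1), covariates, single libraries, a replicate block and leaving out each mouse.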

Additional observations from a re-analysis of the deposited data

Results flagged for a closer look

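Among 70 groups of 4 mice checked for a value far from the others, 4 held one, and about 1 in 20 is flagged by chance. 24 h mouse 1 had 22989 genes with at least 1 count, against 24829 in the nearest mouse of its group. The same mouse had the lowest Nudt3, at 101 CPM against 213 CPM in the nearest, and the highest Rfxap, at 16 CPM against 6.99 CPM. Vehicle mouse 1 had the lowest sum of microglia markers, at 177 CPM against 210.4 CPM.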

How the results depend on the processing

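Calls numbered 4346 (2477 higher, 1869 lower). With the 18S share as a covariate there were 0, 0 and 0 by edgeR (870 at an unadjusted p below 0.05), and with the mitochondrial share 264, 161 and 103. limma voom with quality weights gave 7236, 3751 and 3485, and an adjusted p below 0.01 gave 1404, 891 and 513. With only the 8 mice compared, 2834 genes were lower. Leaving out 1 mouse gave 2550 to 3933 calls, 1465 to 2235 higher and 978 to 1698 lower. The replicate block gave 3667 calls, 3589 of them shared with the 4346. Same-numbered mice deviated with correlations of -0.28, 0.02, -0.18 and -0.03, and the labels tie no number across groups, so the numbers were not taken as pairs.

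With the 18S covariate, where none passed, these genes changed sign or, for Xbp1, came to 0.00: Cnnm4 -0.42, Kit -0.55, Nat14 1.35, Habp4 0.25, Rfxap 0.87, Flna 0.55, Htr2b -0.56, Grm2 0.21, Gabbr1 -0.09, Rgs7 0.02, Pde4d -0.20, Cry2 0.15, Shank1 0.29, Eef1a1 -0.14 and Rian -0.29 (log2 fold change). The cause was not tested. Over the 125 genes named and 8 fits without a mouse, 923 values stayed on their side of the threshold and 77 did not. Among the remaining alternatives, Drd1 missed the threshold with scaling by protein-coding genes or total counts (adjusted p 0.0513 and 0.0518), as did Cry2 (0.0608 and 0.0722) and Gad2 (0.0576 and 0.0683). Cry2 also missed it with library 2 alone (0.0513) and with the replicate block (0.0565), Htr2b with library 2 alone (0.192), Gad2 and Vtn with library 1 alone (0.0617 and 0.0537). With no filter Gabbr2 (0.0505), Atf4 (0.0587) and Csrnp1 (0.111) missed it, with voom Ly6c1 (0.0658) and Slco1a4 (0.24), and Slco1a4 also with thinned counts (0.0663) and the block (0.085). Tbr1 and Sulf1 missed it with the block (0.0618 and 0.0551), and Ntsr1 with thinned counts (0.0714) and library 2 alone (0.0926).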
